A study of Mus musculus with 6 samples.

Results

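The 47 genes described here encode chains of interleukin, colony-stimulating factor, interferon and TGF-beta receptors. They were listed by name, matched to the Entrez gene identifiers of a table of 26332 genes, and grouped by the chain they share. All 47 had a row in the table. Their RNA was followed in double negative 3 (DN3) thymocytes of wild-type (WT) mice and of mice with a knockout of Tcf7 (KO), and the comparison asked which receptor chains these cells carry as RNA and which differ when Tcf7 is disrupted.

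Most cytokine receptors are built from a private chain that binds 1 cytokine and a shared chain that serves a whole family. The common gamma chain (Il2rg) serves IL-2, IL-4, IL-7, IL-9, IL-15 and IL-21, gp130 (Il6st) serves the IL-6 family, and the common beta chain (Csf2rb) serves IL-3, IL-5 and GM-CSF. These chains signal through JAK kinases and STAT factors, whereas IL-1, IL-18 and IL-17 receptors use adaptor proteins and TGF-beta receptors are kinases that phosphorylate SMAD proteins. A cell generally responds only if the chains that a receptor needs to signal are present at its surface, which RNA does not measure. DN3 thymocytes are T-cell precursors at the step where the T-cell receptor beta gene is rearranged. They carry the IL-2 receptor alpha chain CD25 and depend in the earlier steps on IL-7, and TCF-1, the protein of Tcf7, is a DNA-binding factor of the T-cell lineage.

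The mice were C57BL/6, and each library came from 1 mouse: WT 1, WT 2 and WT 3 were female, WT 4 was male, KO 1 was male and KO 2 was female. The KO group therefore holds 1 mouse of each sex, and a difference between the sexes in the KO cannot be told apart from a difference between those 2 mice. The labels give no age, and they do not say which part of Tcf7 was removed or in which cells. Cells were sorted as CD25 positive and as negative for CD44, CD8, CD3, TCRbeta, NK1.1 and CD1d tetramer binding, so Il2ra, which encodes CD25, belongs to the gate of both groups. In bulk RNA of sorted cells, fewer cells of a type and less RNA per cell cannot be told apart.

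Total counts ran from 23711513 to 41666797 in the WT libraries, with 19589938 in KO 1 and 13673860 in KO 2. A limit of 3 counts corresponds to 0.072 to 0.127 CPM (the count scaled to library size) in the WT libraries and 0.153 and 0.219 in KO 1 and KO 2. Tcf7 itself stood at 2094 to 2326 CPM in the WT libraries and at 1133 CPM in KO 1 with 1022 CPM in KO 2, so its RNA was lower but present. None of 10 DN3 markers, Il2ra among them, was at 0 in any library. Their summed level was 12970 to 13820 CPM in WT, while KO 1 had 8860 and KO 2 had 9617. That sum joins unlike members: by the edgeR test described below, 5 of the 10 were lower in KO and 0 higher. Dntt was at 2776 to 2926 CPM in WT, 966 CPM in KO 1 and 1547 CPM in KO 2. Notch1 was at 2141 to 2472 CPM in WT, 2974 CPM in KO 1 and 2224 CPM in KO 2. The libraries also differed in markers of cells outside the gate. The summed level of 10 B cell markers was 237 to 264 CPM in WT, while KO 1 had 544 and KO 2 had 1095, with none of the 10 at 0 in KO 2. Most of that sum was Ighm, at 185 to 220 CPM in WT, 522 CPM in KO 1 and 877 CPM in KO 2. Cd79b was at 42.4 to 50.8 CPM in WT, lower in KO 1 (10.8 CPM) and higher in KO 2 (62.5 CPM). Ms4a1 and Pax5 were at 0 in all WT libraries and in KO 1 and at 36.1 and 7.54 CPM in KO 2. Others of the list were above WT in KO 1 too: Cd22 (at most 0.0351 CPM in WT) reached 6.29 CPM there and 25.2 CPM in KO 2, and Cd79a (at most 0.211 CPM in WT) 3.68 and 40.4 CPM. The 8 markers of double-positive thymocytes summed to 737 to 745 CPM in WT, while KO 1 had 710.0 and KO 2 had 2656. The sum hides unlike members in KO 1, where Cd8a was at 66.9 CPM (0.703 to 3.72 in WT, 858 in KO 2), Cd8b1 at 86.5 CPM (1.58 to 6.74 in WT, 473 in KO 2) and Trac at 69.5 CPM (1.90 to 3.07 in WT, 394 in KO 2), while Arpp21 and Ccr9 were below WT. Both KO libraries had more RNA of 12 markers of NK and innate lymphoid cells (266 and 268 CPM) than the WT libraries (149 to 155 CPM), mostly Gata3. Markers of monocytes and macrophages summed to 8.55 and 9.63 CPM in the KO libraries and 19.2 to 23.0 CPM in WT, a gap carried by Lyz2, whereas Itgam was at 0.492 to 0.752 CPM in WT and 4.81 and 6.87 CPM in KO. Those of DN2 cells and progenitors summed to 27.1 and 54.8 CPM in KO and 86.4 to 95.3 CPM in WT, a gap carried by Kit and Bcl11a. By the edgeR test described below, 2 markers of that list were higher in KO and 0 were lower. The 2 were Lyl1 (0.211 to 0.383 CPM in WT, 24.9 and 5.45 CPM in KO) and Lmo2 (0.141 to 0.383 CPM in WT, 0.921 and 5.37 CPM in KO). Kit (61.0 to 68.4 CPM in WT, 1.075 and 22.5 CPM in KO) was below WT in both KO libraries but did not pass (adjusted p = 0.0684). The same held for Bcl11a (17.6 to 18.7 CPM in WT, 0 and 7.16 CPM in KO, adjusted p = 0.146). Dendritic cell markers other than Bst2 and granulocyte and mast cell markers other than Cpa3 were under 1 CPM in every library. The 7 thymic epithelial markers summed to 150 to 162 CPM in WT, 48.2 CPM in KO 1 and 55.2 CPM in KO 2. Epcam, in that list, was at 147 to 158 CPM in WT, 46.1 CPM in KO 1 and 52.9 CPM in KO 2. The part of this marker RNA in the results below was not tested.

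The cytokine receptor RNA of DN3 cells was uneven. Per gene length, as CPM for each kilobase of the gene (RPKM), Il2ra led in the WT libraries with 425 ± 37.0 (SD, n = 4), followed by Ifngr1 with 206 ± 9.65 and Il2rg with 95.2 ± 4.29. Il17ra (51.0 RPKM) and Il17rb (50.6 RPKM), the next in that order, did not differ beyond the spread of Il17rb. Silent is used here for a gene under 1 CPM in every library. By that rule 9 of the 47 chains were silent: Il13ra1, Il5ra, Osmr, Il23r, Il1r2, Il1rl1, Il18rap, Csf1r and Csf3r. Osmr, the oncostatin M receptor chain, had no count in any library. Nearest to the limit were Il5ra, whose highest level was 0.970 CPM, and, outside it, Csf2rb with 1.27 CPM. A count of 0 limits the level of such a gene only to the 3-count values above, and these limits cover counting error alone.

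**Figure D1:**
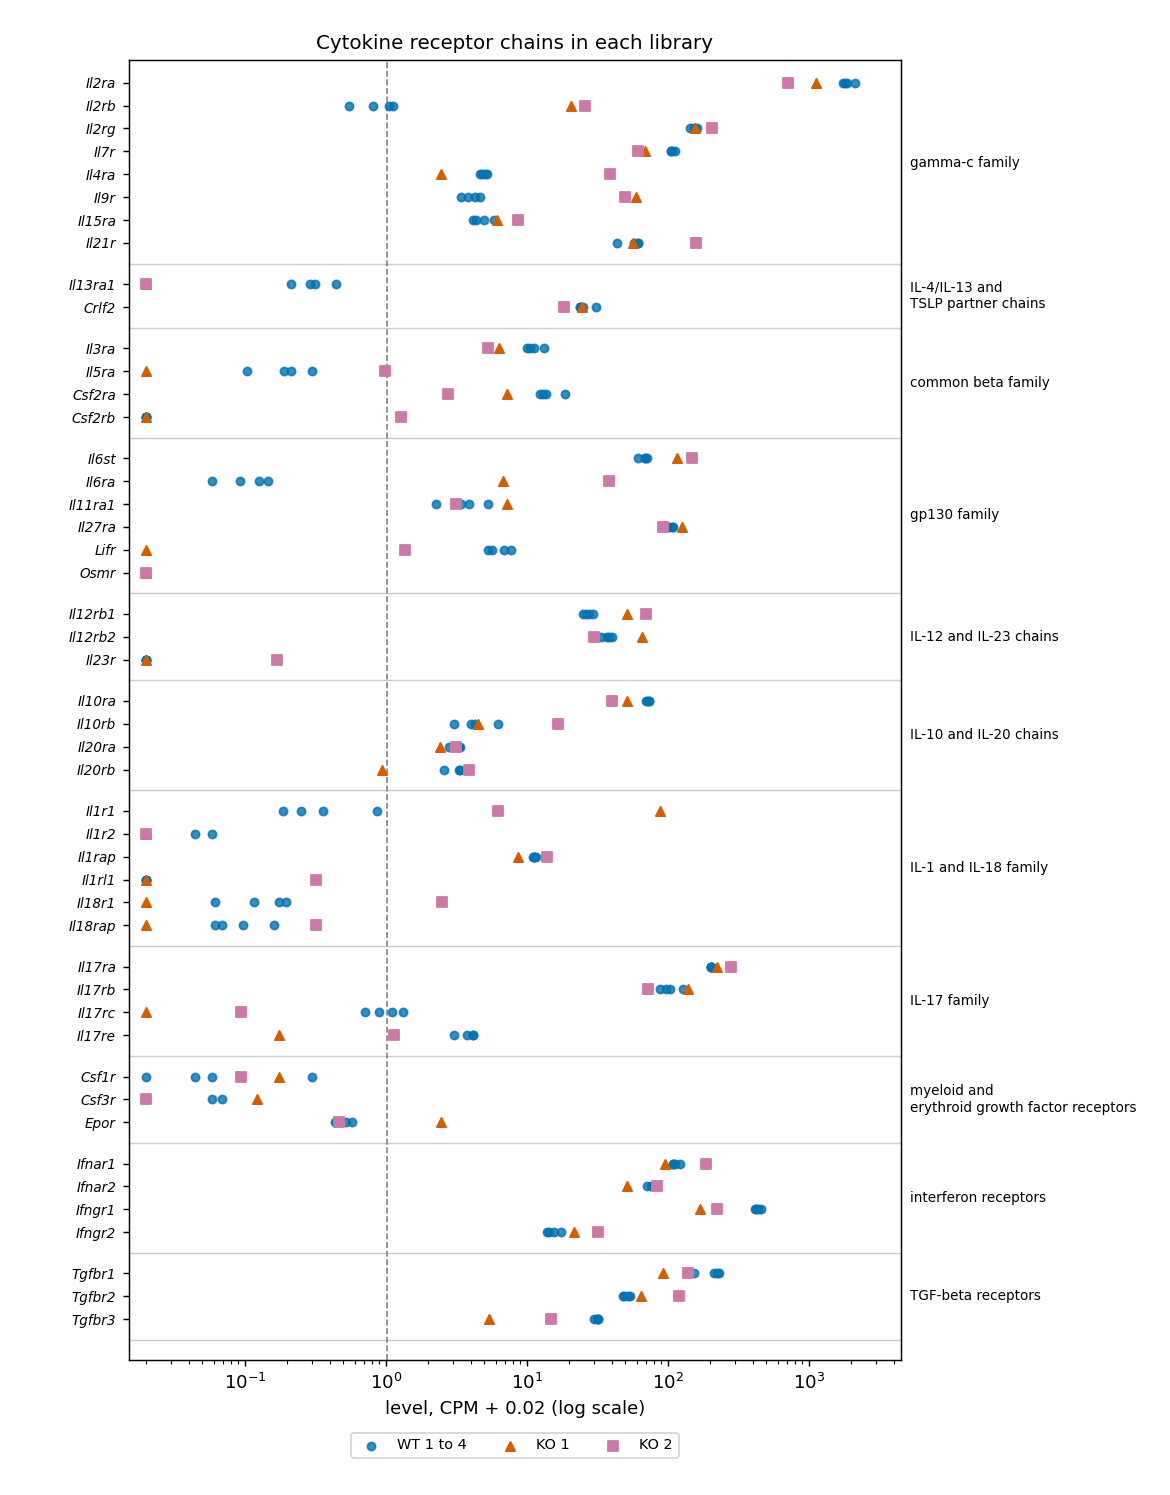
Level of each of the 47 receptor chains (vertical axis, grouped by shared chain) in CPM plus 0.02 on a log axis; circles are WT 1 to 4, the triangle is KO 1 and the square is KO 2, and the dashed line marks 1 CPM. Il2rb, Il9r, Il6ra and Il1r1 lie far to the right of their WT circles in both KO libraries, and the 9 silent chains stay left of the line.

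Of the 47 chains, 36 had enough counts to be tested, and 11 were not tested (the 9 silent ones, Csf2rb and Il18r1). In the KO, 11 chains rose and 11 fell at an adjusted p under 0.05 in edgeR's quasi-likelihood test with sex as a term, which is 30.6% of those tested in each direction. Over the whole table of 13294 tested genes, 14.1% rose and 16.5% fell, 30.7% in all. The median log2 change of the tested chains was 0.10, against -0.05 for all tested genes. A second tool, limma-voom with a separate weight for each genotype, called 13 of the same 22 chains, 8 higher and 5 lower, where it called 7.42% of all genes higher and 3.86% lower. Both KO libraries lay above the whole WT range for 10 chains (27.8% of those tested, 22.9% of all genes) and below it for 11 chains (30.6%, 28.6% of all genes). Without KO 2, 19 of the 22 calls were kept, 11 chains were higher and 18 lower, against 31.3% and 37.3% of all genes. Without KO 1 all 22 were kept, 19 chains were higher and 14 lower, against 30.3% and 31.6% of all genes; in both of these fits the lone KO library is assumed to vary as the WT libraries do. Without WT 4, KO 1 is the only male and the sex term fits it exactly, which gives nearly the values found without KO 1. Il2ra, Il2rb, Il9r, Il6ra, Il12rb1, Il1r1 and Ifngr1 were the 7 chains called in each of the 14 alternatives that were run.

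**Figure D2:**
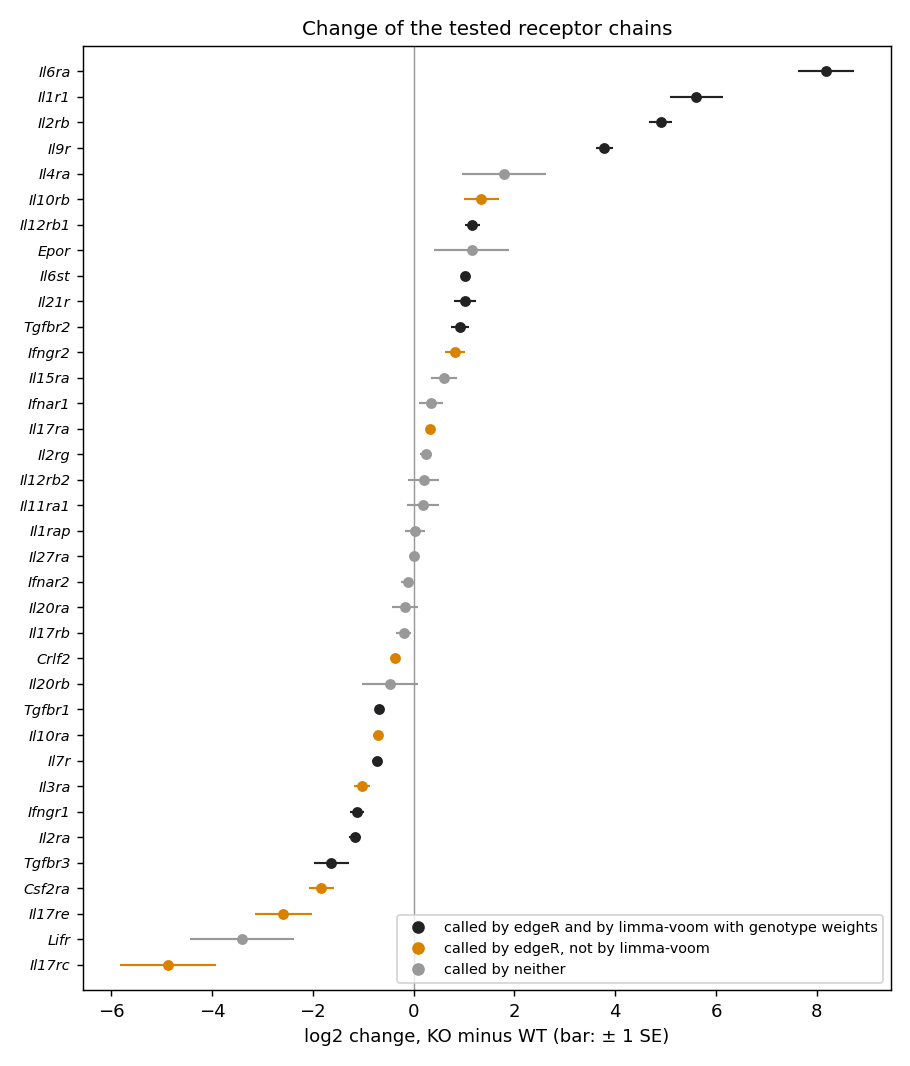
Log2 change (KO minus WT, horizontal axis) of the 36 tested chains with bars of 1 SE on each side; black points were called by edgeR and by limma-voom with genotype weights, orange points by edgeR but not by limma-voom, and grey points by neither. Il6ra (8.18), Il1r1 (5.61), Il2rb (4.90) and Il9r (3.78) stand apart on the right, and the called chains with the largest falls, Il17rc and Il17re, are orange.

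The start regions of 4 chains are printed here because these chains went opposite ways in the KO: Il9r and Il6ra, which rose from low levels, and Il7r and Tgfbr1, which fell. Each window runs from 250 bases before a RefSeq transcript start to 50 after it (build GRCm38.p6), on the strand of the gene. Capitals mark matches to the motif CTTTGA or CTTTGT, the core bound by TCF and LEF proteins, or to TTCNNNGAA, the motif of STAT factors, read on both strands. The windows are chr11:32200230-32200529 for Il9r, a start that lies inside the annotated span of the gene, chr3:89913147-89913446 for Il6ra, chr15:9529827-9530126 for Il7r, all on the minus strand, and chr4:47352972-47353271 for Tgfbr1, on the plus strand.
Il9r: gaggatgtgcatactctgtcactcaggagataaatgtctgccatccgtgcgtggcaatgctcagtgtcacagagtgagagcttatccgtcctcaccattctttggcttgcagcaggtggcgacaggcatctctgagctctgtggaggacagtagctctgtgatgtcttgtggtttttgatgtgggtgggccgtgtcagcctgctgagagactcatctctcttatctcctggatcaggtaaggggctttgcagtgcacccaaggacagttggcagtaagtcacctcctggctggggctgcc
Il6ra: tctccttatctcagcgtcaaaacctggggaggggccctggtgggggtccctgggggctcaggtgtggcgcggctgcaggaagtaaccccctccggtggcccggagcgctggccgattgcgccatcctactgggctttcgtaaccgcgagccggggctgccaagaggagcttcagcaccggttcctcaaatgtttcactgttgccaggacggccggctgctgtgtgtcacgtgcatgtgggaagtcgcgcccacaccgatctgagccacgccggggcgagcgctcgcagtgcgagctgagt
Il7r: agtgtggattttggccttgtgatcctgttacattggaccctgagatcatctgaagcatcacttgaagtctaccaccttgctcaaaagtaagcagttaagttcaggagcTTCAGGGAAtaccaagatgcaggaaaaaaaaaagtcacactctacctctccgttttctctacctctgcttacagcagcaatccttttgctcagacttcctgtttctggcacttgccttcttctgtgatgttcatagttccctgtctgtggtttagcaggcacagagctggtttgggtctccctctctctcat
Tgfbr1: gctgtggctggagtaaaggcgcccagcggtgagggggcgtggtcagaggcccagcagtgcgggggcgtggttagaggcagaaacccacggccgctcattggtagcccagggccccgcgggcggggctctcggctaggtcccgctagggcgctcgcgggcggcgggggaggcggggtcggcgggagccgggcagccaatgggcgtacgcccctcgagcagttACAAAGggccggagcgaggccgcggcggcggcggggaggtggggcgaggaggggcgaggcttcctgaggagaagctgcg
Neither motif occurs in the windows of Il9r and Il6ra. The Il7r window holds 1 STAT motif (TTCAGGGAA), 142 bases before the start. The Tgfbr1 window holds 1 TCF/LEF core on the other strand (ACAAAG), 29 bases before the start, and a second start of Tgfbr1 has another. RefSeq windows were found for 38 of the 47 chains (46 windows). The TCF/LEF core was in 9 of these windows (19.6%), in 8 genes, against 31.2% of all 32851 windows in the table, and the STAT motif was in 6 (13.0%) against 8.30%. Of 7 chains with a window that rose, 0 held either motif, and of 9 that fell, 2 held the TCF/LEF core (Tgfbr1 and Il17rc) and 1 the STAT motif (Il7r). Of 13 tested chains that were not called, 3 held the TCF/LEF core and 3 the STAT motif. Among 9 chains that were not tested, 3 held the TCF/LEF core and 2 the STAT motif. A match describes letters in a short window and does not show binding.

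In the gamma chain family the alpha chain of IL-2 fell, while the shared IL-2/IL-15 beta chain and the IL-9 receptor rose from low levels. Of its 8 chains, Il2rb, Il9r and Il21r rose, Il2ra and Il7r fell, and Il2rg, Il4ra and Il15ra did not pass the test. Il2rb, which turns the IL-2 and IL-15 receptors into signalling complexes, stood at 1.04, 0.794, 1.11 and 0.527 CPM in WT 1 to WT 4 and at 20.4 CPM in KO 1 with 25.8 CPM in KO 2. The KO libraries were far above the WT range, with a log2 change of 4.90 ± 0.23 (SE, adjusted p = 0.000298). The private chain of the IL-9 receptor, Il9r, rose likewise in both KO mice. Its levels were 3.82, 4.64, 4.26 and 3.37 CPM in the WT libraries, 59.7 CPM in KO 1 and 49.4 CPM in KO 2, a log2 change of 3.78 ± 0.17 (adjusted p = 0.00031). The 1803 bases that Il9r shares with the pseudogene Gm12109 are a limit on the certainty of its count.

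Il2ra (CD25) fell, although all cells were sorted as CD25 positive. It stood at 1852, 1801, 1751 and 2119 CPM in WT 1 to WT 4, at 1131 CPM in KO 1 and at 708 CPM in KO 2, below every WT library (log2 change -1.17 ± 0.12, adjusted p = 0.00253). Il7r, the IL-7 receptor alpha chain and also part of the TSLP receptor, was at 105, 112, 108 and 106 CPM in the WT libraries and at 69.0 and 61.4 CPM in the KO libraries. The WT levels lay close together and both KO levels were below them, with a log2 change of -0.73 ± 0.08 (adjusted p = 0.00333). Il2rg, the shared chain itself, was at 145 to 161 CPM in WT, 157 CPM in KO 1 and 204 CPM in KO 2. Only KO 2 left the WT range, and the log2 change of 0.25 did not pass the test (adjusted p = 0.17); without KO 1 it was 0.45 and passed. As a share of the family's summed RPKM, Il2ra made up 72.1% to 75.5% in the WT libraries, 59.8% in KO 1 and 39.4% in KO 2.

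The other gamma chain partners differed between the KO mice. Il21r, the IL-21 receptor, was at 61.1, 57.4, 61.3 and 43.4 CPM in WT 1 to WT 4, at 56.6 CPM in KO 1 and at 158 CPM in KO 2. KO 1 lay inside the WT range, and the log2 change of 1.02 ± 0.22 (adjusted p = 0.0228) came with that split. Its adjusted p was 0.084, 0.0777 and 0.0802 without WT 1, WT 2 and WT 3, and 0.103 with no sex term. Without KO 2 its log2 change was 0.37, and 0.01 (adjusted p = 0.978) when the sex term was dropped as well. Il4ra, the IL-4 receptor alpha chain, lies next to Il21r on chromosome 7. It was at 4.64 to 5.20 CPM in WT, 2.46 CPM in KO 1 and 38.7 CPM in KO 2, on opposite sides of the WT range. The fitted log2 change of 1.80 ± 0.83 did not pass (adjusted p = 0.161), and it was -1.09 without KO 2 and 3.01 without KO 1, each past the threshold. In KO 2, where both genes were high, the B cell and double-positive markers were high too, and their part in this was not tested. Il15ra, which presents IL-15, was at 4.14 to 5.83 CPM in WT, 6.14 CPM in KO 1 and 8.58 CPM in KO 2. Both KO levels were above the WT range by a small margin, and the log2 change of 0.60 missed the threshold (adjusted p = 0.134), which it passed at 0.96 without KO 1.

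Il13ra1 and Crlf2 are the partner chains that join Il4ra and Il7r in the type II IL-4/IL-13 receptor and the TSLP receptor. Il13ra1 was silent, at 0.193 to 0.422 CPM in WT and 0 in both KO libraries, so it was at least 3.11-fold lower in KO against a floor of 3 counts over the group. Crlf2 was at 24.0, 23.8, 24.8 and 30.7 CPM in the WT libraries, 24.6 CPM in KO 1 and 18.3 CPM in KO 2. KO 1 lay inside the WT range, and the small log2 change of -0.37 ± 0.10 (adjusted p = 0.0388) was lost with limma-voom (adjusted p = 0.574) and without WT 1, WT 2 or WT 3 (0.136, 0.128 and 0.137).

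In the common beta family the alpha chains Il3ra and Csf2ra were present at low levels, while Il5ra was silent and the shared chain had counts in KO 2 alone. Il3ra, the IL-3 receptor alpha chain, was at 11.3, 10.5, 9.93 and 13.2 CPM in WT 1 to WT 4 and fell to 6.29 CPM in KO 1 and 5.30 CPM in KO 2 (log2 change -1.03 ± 0.16, adjusted p = 0.00833). Without WT 1 the adjusted p was 0.053, and with limma-voom it was 0.344. Csf2ra, the GM-CSF receptor alpha chain, was at 12.4, 13.6, 13.0 and 18.5 CPM in the WT mice, against 7.16 and 2.76 CPM in the KO mice. Both KO libraries were below the WT range, with a log2 change of -1.83 ± 0.25 (adjusted p = 0.00597), against an adjusted p of 0.145 with limma-voom and a log2 change of -1.01 without KO 2 and with no sex term. Csf2rb, the shared chain, had no count in any WT library or in KO 1, and KO 2 had 17 counts (1.27 CPM). Pooled over each group, Csf2rb was at least 20.6-fold higher in KO, against a floor of 3 counts over the WT group. That value rests on KO 2 alone and does not describe KO 1. In the mouse IL-3 also signals through a near-identical copy, Csf2rb2, which was at 0 to 0.153 CPM in WT, 0 in KO 1 and 0.821 CPM in KO 2, and reads of these copies are uncertain. Il5ra, the IL-5 receptor alpha chain, was silent: it reached 0.281 CPM in WT, 0 in KO 1 and 0.970 CPM in KO 2.

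In the gp130 family the shared chain and the IL-6 receptor alpha chain rose together. Il6st (gp130) was at 68.5, 71.3, 69.4 and 61.4 CPM in WT 1 to WT 4, at 115 CPM in KO 1 and at 149 CPM in KO 2. The groups did not overlap, and the log2 change was 1.02 ± 0.07 (adjusted p = 0.00087). Il6ra, which binds IL-6 before gp130 joins, had the largest log2 change of the 36 tested chains. It was near the counting limit in WT, at 0.0724, 0.125, 0.0383 and 0.105 CPM, and stood at 6.81 CPM in KO 1 and 38.3 CPM in KO 2. Its log2 change of 8.18 ± 0.55 (adjusted p = 0.00076) was 5.94 without KO 2 and 8.90 without KO 1, so its size but not its direction depended on the mouse. An RNA gene, Gm46811, overlaps Il6ra over 18140 bases, and the library kit does not mark strand.

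Of the remaining gp130 partners none passed the test. Il27ra, the IL-27 receptor, was the most abundant private chain of the family per length, at 39.0 RPKM in WT. It was at 98.0 to 108 CPM in WT, 126 CPM in KO 1 and 92.5 CPM in KO 2, on opposite sides of the WT range (log2 change 0.00, adjusted p = 0.981). Without KO 2 its log2 change was 0.20 and without WT 4 it was -0.15, both past the threshold. Il11ra1, the IL-11 receptor, was at 2.25 to 5.31 CPM in WT, 7.16 CPM in KO 1 and 3.13 CPM in KO 2 (adjusted p = 0.705). Lifr, the receptor of leukaemia inhibitory factor, was at 7.70, 5.60, 5.29 and 6.85 CPM in WT, 0 in KO 1 and 1.34 CPM in KO 2. Both KO levels were below the WT range, yet the fitted log2 change of -3.41 ± 1.04 missed the threshold in edgeR (adjusted p = 0.0598) and passed it in DESeq2 (adjusted p = 0.00295). It passed also without KO 1 (-2.21), and without KO 2, where the remaining KO library had no count and no fold can be given.

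The IL-12 and IL-23 receptors share Il12rb1, and of their 3 chains only that one was called. Il12rb1 was at 26.3, 24.8, 27.5 and 29.6 CPM in WT 1 to WT 4, 50.9 CPM in KO 1 and 69.6 CPM in KO 2. Both KO libraries were above the WT range (log2 change 1.16 ± 0.15, adjusted p = 0.00525). Il12rb2, the signalling chain of the IL-12 receptor, was at 33.6 to 39.9 CPM in WT, 65.1 CPM in KO 1 and 29.9 CPM in KO 2. These lay on opposite sides of the WT range, with a log2 change of 0.20 (adjusted p = 0.651) that was 0.94 without KO 2 and -0.35 without KO 1, each past the threshold. It overlaps Serbp1 over 3317 bases, which makes its count less certain. Il23r was silent, with 2 counts in KO 2 and none elsewhere.

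Both chains of the IL-10 receptor were called, in opposite directions. Il10ra, the chain that binds IL-10, was at 70.6, 73.2, 69.7 and 73.8 CPM in WT and at 51.3 CPM in KO 1 with 40.2 CPM in KO 2, below every WT library. Its log2 change was -0.70 ± 0.10 (adjusted p = 0.00629), against an adjusted p of 0.0968 with limma-voom. Il10rb, which also serves IL-22 and the lambda interferons, was at 4.27, 6.23, 3.99 and 3.02 CPM in WT, 4.50 CPM in KO 1 and 16.6 CPM in KO 2. Only KO 2 was above the WT range. The log2 change of 1.34 ± 0.34 (adjusted p = 0.0372) was lost without WT 1, WT 2, WT 3 or KO 2 (0.116, 0.0918, 0.106 and 0.107) and with limma-voom (0.284) or no sex term (0.114). It was 0.56 without KO 2, and 0.04 (adjusted p = 0.93) when the sex term was dropped as well. The IL-20 receptor chains did not pass the test. Il20ra was at 2.80 to 3.34 CPM in the WT mice, against 2.41 and 3.13 CPM in the KO mice, and Il20rb was at 2.55 to 3.73 CPM in WT, 0.921 CPM in KO 1 and 3.88 CPM in KO 2. The log2 change of Il20rb was -0.47 in all, -2.02 without KO 2, which passed, and 0.35 without KO 1, which did not.

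Of the 6 listed chains of the IL-1 and IL-18 family only 2 were tested, Il1r1, which rose, and Il1rap, which did not pass. Il1r1 binds IL-1 and signals with the accessory chain Il1rap. It was at 0.338, 0.167, 0.230 and 0.843 CPM in WT 1 to WT 4, 88.2 CPM in KO 1 and 6.19 CPM in KO 2. Both KO libraries were above the WT range, KO 1 by far the more, with a log2 change of 5.61 ± 0.53 (adjusted p = 0.00203) that was 6.69 without KO 2 and 4.57 without KO 1. Il1rap was at 11.1 to 11.6 CPM in WT, 8.60 CPM in KO 1 and 14.0 CPM in KO 2, on opposite sides of a narrow WT range. Its log2 change of 0.03 (adjusted p = 0.931) was -0.44 without KO 2 and 0.34 without KO 1, each past the threshold. The decoy receptor Il1r2, the IL-33 receptor Il1rl1 and the IL-18 receptor accessory chain Il18rap were silent, with at most 0.299 CPM in any library. Il18r1, the IL-18 receptor, was at 0.0418 to 0.176 CPM in WT, 0 in KO 1 and 2.46 CPM in KO 2, and was not tested.

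The IL-17 family joined a widely shared chain at a high level to partners at very different levels. Il17ra, the shared chain, was at 202, 204, 201 and 203 CPM in WT 1 to WT 4, 222 CPM in KO 1 and 279 CPM in KO 2. The WT levels were nearly equal, and a log2 change of 0.33 ± 0.09 passed (adjusted p = 0.0444). The call was lost without WT 1, WT 2, WT 3 or KO 2 (adjusted p = 0.139, 0.138, 0.138 and 0.0588) and with limma-voom (0.284). Il17rb, which joins Il17ra in the IL-25 receptor, was at 88.3 to 128 CPM in WT, 138 CPM in KO 1 and 72.2 CPM in KO 2. Its log2 change of -0.20 did not pass (adjusted p = 0.352), without KO 1 it was -0.39 and passed, and without KO 2 and with no sex term it was 0.40 and did not. Il17rc and Il17re, the partner chains for IL-17A and IL-17C, are neighbours on chromosome 6, 0.697 kb apart. Il17rc was at 0.869, 1.09, 0.690 and 1.30 CPM in WT, 0 in KO 1 and 0.0746 CPM in KO 2, a single KO count. Pooled over the libraries of each group, WT exceeded KO 32.2-fold (exact 95% interval 5.66 to 1280.0, counting error only), and the adjusted p was 0.0175. Il17re was at 3.74, 4.14, 4.14 and 3.02 CPM in the WT mice, against 0.154 and 1.12 CPM in the KO mice (log2 change -2.58 ± 0.57, adjusted p = 0.0245). It was -4.27 without KO 2 and -1.81 without KO 1. Without WT 1, WT 2 or WT 3 neither gene passed (adjusted p = 0.0701, 0.0695 and 0.0598 for Il17rc and 0.0799, 0.0822 and 0.0822 for Il17re), nor did they with limma-voom (0.356 and 0.302).

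The growth factor receptors of myeloid and erythroid cells were at or near 0. Csf1r reached 0.281 CPM and Csf3r 0.102 CPM in any library. Epor, the erythropoietin receptor, was at 0.418 to 0.555 CPM in WT, 2.46 CPM in KO 1 and 0.448 CPM in KO 2. It did not pass the test (adjusted p = 0.289) and its log2 change was 2.52 without KO 2, past the threshold, and -0.14 without KO 1. The summed level of 8 erythroid markers, Epor among them, was 4.39 to 15.5 CPM in WT, with 5.83 in KO 1 and 35.5 in KO 2. The part of erythroid RNA in the Epor levels was not tested.

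The interferon gamma receptor showed opposite changes in its chains. Ifngr1, the chain that binds interferon gamma, was at 433, 419.9, 416 and 461 CPM in WT 1 to WT 4, 168 CPM in KO 1 and 224 CPM in KO 2. Both KO libraries were below the WT range (log2 change -1.13 ± 0.13, adjusted p = 0.00405). Ifngr2, the chain that completes the receptor, was at 14.3, 14.0, 15.6 and 17.4 CPM in the WT mice, against 21.7 and 31.9 CPM in the KO mice, above the WT range. Its log2 change of 0.81 ± 0.20 (adjusted p = 0.0329) was lost without WT 1, WT 2, WT 3 or KO 2 (0.106, 0.102, 0.0998 and 0.052) and with limma-voom (0.266), and was 0.30 without KO 2. The chains of the type I interferon receptor did not pass. Ifnar1 was at 108 to 122 CPM in WT, 95.1 CPM in KO 1 and 187 CPM in KO 2, and Ifnar2 was at 71.0 to 77.9 CPM in WT, 51.7 CPM in KO 1 and 83.7 CPM in KO 2. For both, KO 1 was below and KO 2 above the WT range. The log2 change of Ifnar1 was -0.37 without KO 2 and 0.78 without KO 1, and that of Ifnar2 was -0.47 without KO 2, all past the threshold.

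All chains of the TGF-beta receptor were called. Tgfbr1, the type I receptor kinase, was at 222, 212, 230.3 and 154 CPM in WT 1 to WT 4, 93.0 CPM in KO 1 and 139.6 CPM in KO 2. Both KO libraries were below the lowest WT library, the male WT 4, and the log2 change was -0.69 ± 0.07 (adjusted p = 0.0024). Without KO 1 and with no sex term it was -0.54 and missed the threshold (adjusted p = 0.104). An RNA gene, Gm32435, overlaps it over 32925 bases. Tgfbr2, the type II kinase that binds the ligand, went the other way: 53.7, 52.5, 48.5 and 47.9 CPM in WT, 64.9 CPM in KO 1 and 121 CPM in KO 2. The groups did not overlap (log2 change 0.92 ± 0.18, adjusted p = 0.0167). Tgfbr3, betaglycan, the co-receptor that presents TGF-beta, was at 29.8, 31.6, 31.9 and 32.0 CPM in the WT mice, against 5.37 and 14.8 CPM in the KO mice. It fell with a log2 change of -1.63 ± 0.35 (adjusted p = 0.0222), which was -2.59 without KO 2. With WT 1, WT 2 or WT 3 left out, the adjusted p was 0.0682, 0.0656 and 0.0597 for Tgfbr2 and 0.0676, 0.0688 and 0.0684 for Tgfbr3. Limma-voom called all 3 chains (adjusted p = 0.0247, 0.031 and 0.0273).

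Put together as receptors, the chains form 30 ligand-binding complexes, many of which share a chain and are not independent of each other. In WT, 16 complexes had every chain at 1 CPM or more in all libraries, and in KO 18 did. In both genotypes 13 were complete by that rule, among them the receptors for IL-7, IL-9, IL-21, TSLP, IL-27, IL-12, IL-10, IL-25, both interferon classes and TGF-beta. The 5 complete only in KO were the IL-2 receptor in its forms of 3 and 2 chains and the IL-15 receptor, for which Il2rb was the lowest chain in WT, the IL-6 receptor and the IL-1 receptor. Il2rb crosses 1 CPM within the WT group, so the IL-2 and IL-15 receptors rest on the cutoff: at 0.5 CPM 20 complexes were complete in WT and 19 in KO, and at 2 CPM again 16 and 18. The 3 complete only in WT at 1 CPM were the LIF, IL-20 and IL-17C receptors, in which KO 1 alone fell under it. In neither genotype were 9 complexes complete, including the receptors for IL-5, GM-CSF and, in its form with Csf2rb, IL-3, the OSM receptor without Osmr and the IL-33 and IL-18 receptors. Presence of RNA by this rule says nothing about protein at the surface, and no test applies to these counts.

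**Figure D3:**
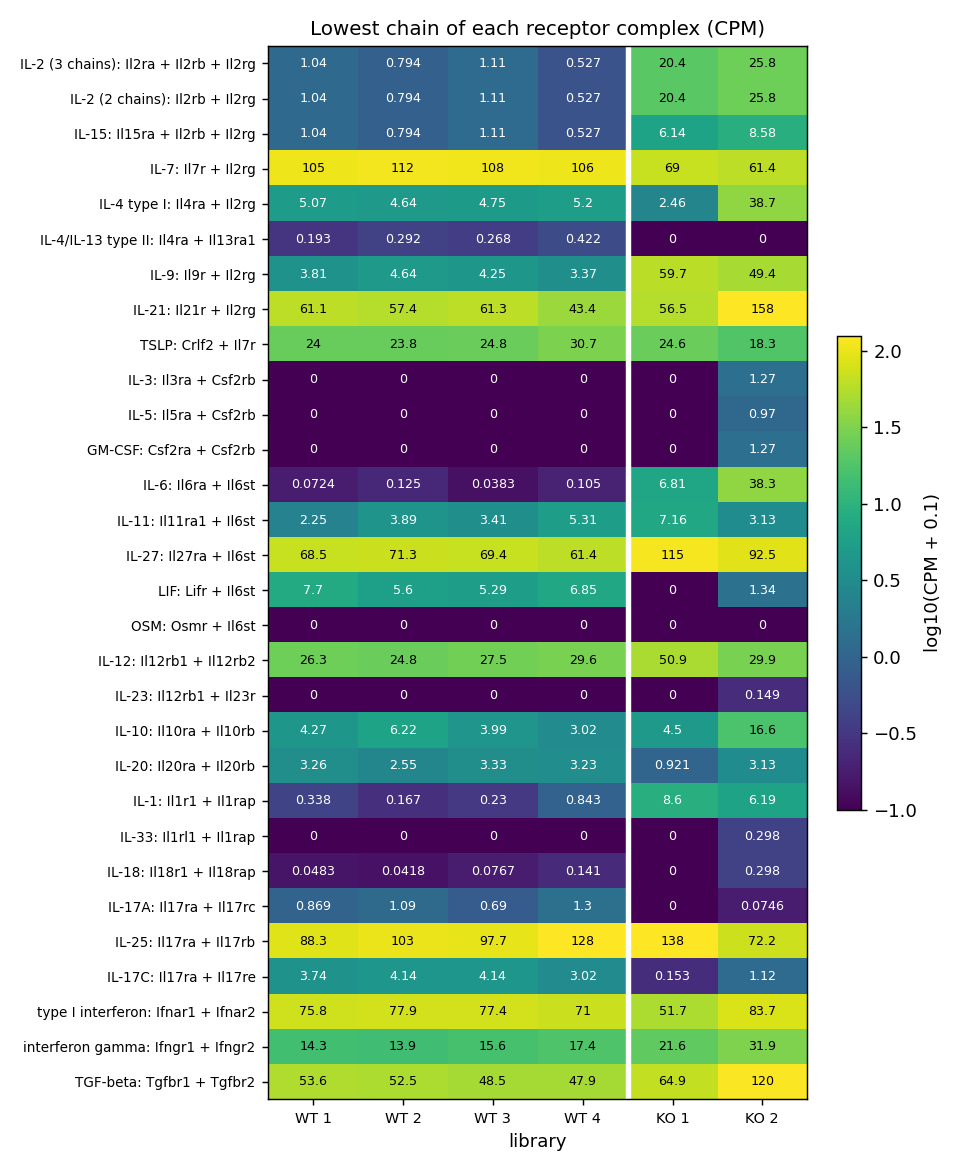
Level in CPM of the lowest chain of each of 30 receptor complexes (rows, with their chains) in each of the 6 libraries (columns); colour is log10 of CPM plus 0.1. The lowest chains of the IL-2, IL-15, IL-6, IL-9 and IL-1 receptors are higher in both KO columns than in the WT columns, and the OSM receptor is at 0 throughout.

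Ratios between partner chains, taken on RPKM within a library, do not depend on how libraries are scaled. The ratio of Ifngr1 to Ifngr2 was 26.1 to 29.9 in the WT libraries and 7.66 and 6.92 in KO 1 and KO 2. That of Tgfbr1 to Tgfbr2 ran from 2.72 to 4.01 in the WT mice and stood at 1.21 in KO 1, with 0.979 in KO 2, so the RNA of both kinases came close to equal per length. Il2ra exceeded Il2rb 960-fold to 2449-fold in WT, 33.7-fold in KO 1 and 16.7-fold in KO 2. Il9r relative to Il2rg ran from 0.0109 to 0.0159 in the WT mice and stood at 0.199 in KO 1, with 0.126 in KO 2. In these pairs both KO mice were on the same side of the WT range. For Il12rb1 to Il12rb2 (0.686 to 0.904 in WT), KO 1 at 0.802 was inside the range and KO 2 at 2.39 was above it. For Il10ra to Il10rb (6.23 to 12.9 in WT), KO 1 was at 6.04, just under the range, and KO 2 at 1.28.

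**Figure D4:**
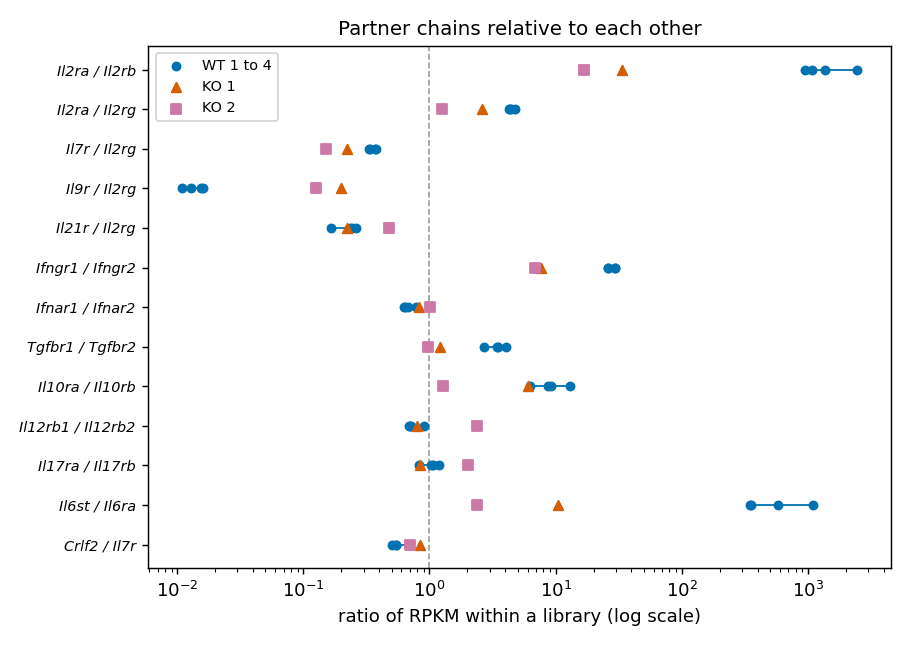
Ratio of RPKM between partner chains within each library on a log axis; circles joined by a line are WT 1 to 4, triangles KO 1 and squares KO 2, and the dashed line marks equal RPKM. The ratios of Ifngr1 to Ifngr2 and of Tgfbr1 to Tgfbr2 are lower in both KO libraries than in any WT library, and those of Il12rb1 to Il12rb2 and Il17ra to Il17rb leave the WT range only in KO 2.

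The KO mice differed more from each other in these chains than WT mice did. Over the 36 tested chains the median gap between KO 1 and KO 2 was 0.67 on the log2 scale, with 0.5 CPM added, against a median WT range of 0.26. Over all tested genes these values were 0.43 and 0.22. For 13 chains (36.1%) the KO gap was over 1, against 18.7% of all genes, and for 8 chains (22.2%, against 21.6% of all genes) the KO mice were on opposite sides of the WT range. Those 8 were Il4ra, Il27ra, Il12rb2, Il20rb, Il1rap, Il17rb, Ifnar1 and Ifnar2. KO 2 was the higher of the KO mice for Il4ra, Il6ra, Il21r and Il10rb, and KO 1 for Il1r1, Il12rb2 and Il17rb. Sex, the mouse and the marker RNA of other cells differ together between the KO libraries and cannot be told apart here. Summed B cell marker RNA, mostly Ighm, was above WT in both KO libraries and higher in KO 2. Summed double-positive marker RNA was above WT in KO 2 alone. Of that list Cd8a, Cd8b1 and Trac were above WT in both KO libraries, and Arpp21 and Ccr9 were below WT in KO 1. The part of this marker RNA in these gaps was not tested.

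**Figure D5:**
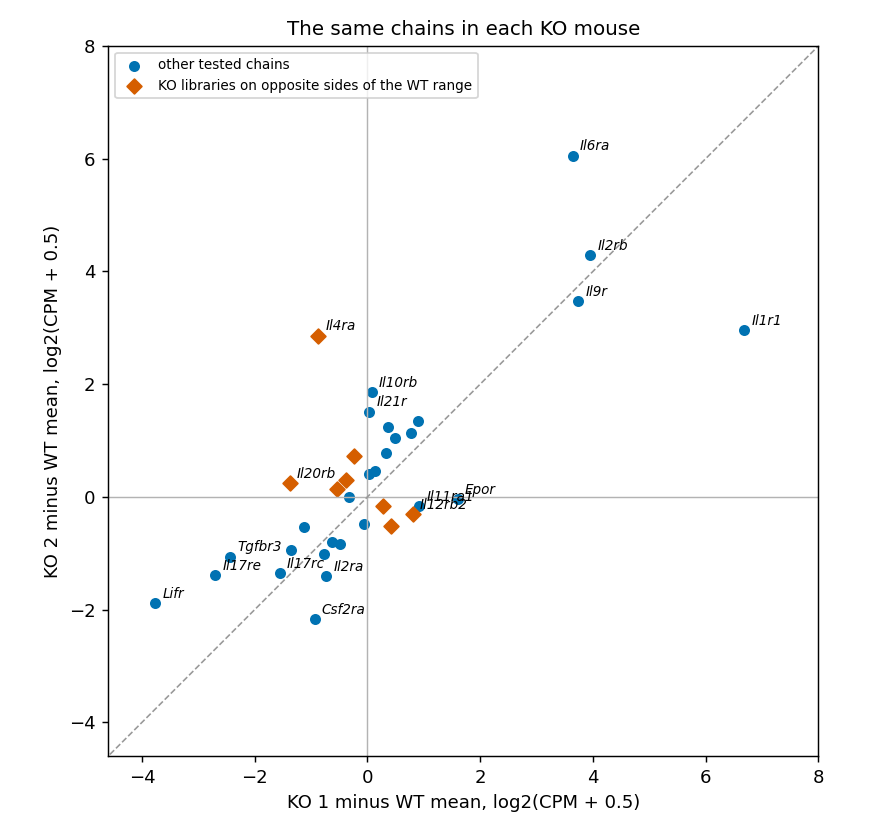
Difference from the WT mean, as log2 of CPM plus 0.5, in KO 1 (horizontal) and KO 2 (vertical) for the 36 tested chains; diamonds are the 8 chains with the KO mice on opposite sides of the WT range, and the dashed line marks equal differences. Il6ra and Il4ra lie above that line and Il1r1 below it, whereas Il2rb and Il9r lie close to it.

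Several chains are neighbours in the genome (coordinates of GRCm38.p6, the mm10 assembly), and neighbours did not always move together. On chromosome 1, Il1r2, Il1r1, Il1rl1, Il18r1 and Il18rap lie within 40084692 to 40551707, and of these only Il1r1 had enough counts to be tested. On chromosome 2, Il2ra (11642792 to 11693194) is 12.0 kb from Il15ra, and Il2ra fell while Il15ra was above the WT range in both KO libraries without passing the test. On chromosome 16, Ifnar2, Il10rb, Ifnar1 and Ifngr2 lie within 91372783 to 91564007. In KO 2 each of these 4 was above its WT range, whereas in KO 1 the 2 interferon alpha receptor chains were below theirs, Il10rb was inside and Ifngr2 above. On chromosome 10, Ifngr1 (19591949 to 19610229) is 101 kb from Il20ra, which did not pass. On chromosome 15, Csf2rb ends 128 kb before Il2rb (78479256 to 78511621), and Il2rb rose while Csf2rb had counts in KO 2 alone.

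Genes around these receptors were taken from lists of related chains, cytokines and signalling components. Of 25 further receptor chains 12 were tested, and 3 of these 12 rose and 3 fell, where 14.1% of all tested genes rose and 16.5% fell. Il17rd, an IL-17 receptor family member, was at 0.797 to 0.949 CPM in the WT mice, against 19.3 and 17.1 CPM in the KO mice (log2 change 4.33 ± 0.18, adjusted p = 0.000192). Il1rl2, the IL-36 receptor and a neighbour of Il1r1, was at 2.63 to 3.51 CPM in WT, 15.6 CPM in KO 1 and 7.09 CPM in KO 2 (log2 change 1.66 ± 0.26, adjusted p = 0.00879), and so was highest in the same mouse as Il1r1. Acvr1b, an activin type I receptor, also rose (0.38), and Eng (endoglin, a TGF-beta co-receptor) and Il22ra2 were among those that fell. Eng was at 35.7 to 40.1 CPM in the WT mice, against 8.29 and 10.5 CPM in the KO mice, so that both co-receptors, Eng and Tgfbr3, fell. Il22ra2 reached at most 0.773 CPM in WT and was without a count in the KO libraries.

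Among 37 cytokine genes 8 were tested, 2 of which rose and 3 fell, against the same 14.1% and 16.5% of all genes. Tgfb3, a ligand of the TGF-beta receptor, was at 2.80 to 3.76 CPM in the WT mice, against 30.0 and 36.3 CPM in the KO mice (log2 change 3.41 ± 0.18, adjusted p = 0.000424), while Tgfb1 was at 111 to 116 CPM in WT and fell to 72.8 and 96.1 CPM (log2 change -0.38, adjusted p = 0.046). Il10, at most at 0.209 CPM in the WT mice, rose to 1.79 and 2.39 CPM. Ifng, at 1.16 to 2.42 CPM in the WT mice, fell to 0 and 0.224 CPM, and Il18, at 1.19 to 1.38 CPM in WT, had no count in KO. Of 24 JAK, STAT and feedback genes 3 rose, among them Ptpn6 and Socs4, and 3 fell (Pias3, Socs6 and Socs5), shares no higher than the 14.1% and 16.5% of all genes. Ptpn6, a phosphatase that limits JAK signals, was at 184 to 195 CPM in the WT mice, against 408 and 299 CPM in the KO mice (log2 change 0.84 ± 0.11, adjusted p = 0.00603). Of 10 adaptors of the IL-1 and IL-17 receptors Tab2 rose and Irak1 fell, again under those shares. Of 12 SMAD pathway genes 5 rose and 3 fell, where 14.1% and 16.5% of all genes did. Smad3, a SMAD that TGF-beta receptors phosphorylate, was at 132 to 143 CPM in the WT mice, against 250.4 and 367 CPM in the KO mice (log2 change 1.22 ± 0.12, adjusted p = 0.00203). Skil and Smurf2, which limit SMAD signals, rose by 1.32 and 0.98 on the log2 scale, and Smad1, Tgif1 and Smad6 fell.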

How the data were processed

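RNA of sorted DN3 thymocytes from 4 WT and 2 KO mice was amplified with SMART-Seq v4, which does not mark strand, and sequenced in paired ends, per the labels' protocols. The authors deposited raw read counts for each Entrez identifier; featureCounts and mm10 are named in the submitters' processing notes. The strand setting and the aligner were not given in the sources used here. Gene lengths, from the deposited table, served for RPKM. Symbols came from RefSeq (GRCm38.p6), which named 25275 of 26332 identifiers.

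The counts were tested with edgeR 4.0.16 in R 4.3.3: filterByExpr with a minimum count of 10 (13294 genes kept), TMM scaling, and a robust quasi-likelihood F-test of KO against WT with sex as a term and 3 residual degrees of freedom. Calls used a Benjamini-Hochberg adjusted p under 0.05 over all 13294 genes. CPM are TMM-scaled. Replicates are individual mice. Alternatives were RLE scaling, DESeq2 1.42.0, limma 3.58.1 (voom with a weight per genotype), no filter, no sex term, a replicate block, and leaving out each library, for both KO libraries also with no sex term. The scripts were tested on simulated data. All 47 receptor chains are named. Of each list of related genes up to 3 called genes with the smallest p in each direction are named. For the marker lists the sum, the markers at 0 and up to 2 of the highest were planned, and not all of these are given for every list. Some genes of these lists are not reported here. Other genes were named after their values were seen: Ms4a1, Pax5, Cd22, Cd79a, Cd8b1, Trac, Ccr9, Bcl11a, Lmo2 and the overlapping genes. Csf2rb2 was named as a partner chain of the IL-3 receptor. The members and lists were chosen with earlier results of these data known. Intervals and 3-count limits cover counting error only, since amplified reads are not independent molecules.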

Additional observations from a re-analysis of the deposited data

Results flagged for a closer look

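One WT library stood apart from the others of its group: Crlf2 was at 30.7 CPM in WT 4, beyond Dixon's 95% critical value for 4 samples. In all, 36 WT groups were examined, and chance flags about 1 in 20.

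For 27 of the 36 tested chains, and 7274 of 13294 genes, the effect of the genotype differed between the sexes by a test of the interaction in edgeR (adjusted p under 0.05). Each KO mouse is the only one of its sex, so this term cannot be told apart from a difference between KO 1 and KO 2. Values are the effect in males minus that in females on the log2 scale. Higher in males were Il1r1 (2.16), Epor (2.68), Il12rb2 (1.32), Csf2ra (0.86), Il9r (0.58), Il17rb (0.52), Il2ra (0.44), Il27ra (0.36) and Il10ra (0.30). In the other direction were Il4ra (-4.08), Il6ra (-2.93), Il17re (-2.43) and Il20rb (-2.34). Lifr had no count in KO 1, so its fitted -8.22 depends on the prior count and is no measure of size. Il2rg (-0.48), Il15ra (-0.87), Il21r (-1.02), Il12rb1 (-0.62), Il10rb (-1.23), Il1rap (-0.75) and Il17ra (-0.33) were also lower in the male KO, as were Ifnar1 (-1.13), Ifnar2 (-0.58), Ifngr1 (-0.54), Ifngr2 (-0.81), Tgfbr2 (-0.78) and Tgfbr3 (-1.50).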

How the results depend on the processing

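All 22 called chains had the same direction in each of the 14 alternatives, and 7 were called in each. RLE scaling and DESeq2 kept all 22 calls, no filter 20, no sex term 18 and limma-voom 13. Limma-voom called 5 chains lower in place of 11, and 987 genes higher and 513 lower in place of 1878 and 2198. Leaving out single libraries gave 6 to 19 chains higher and 6 to 18 lower, and 881 to 4321 genes higher and 784 to 5152 lower. Without WT 4, KO 1 is the only male and the sex term fits it exactly, and without either KO library the other stands alone. Without KO 1 and with no sex term 18 chains were higher, and 3514 genes higher and 3664 lower; without KO 2 and with no sex term 17 chains were lower, and 4020 genes higher and 4898 lower. Replicate numbers 1 and 2 occur in both genotypes but name different mice, and the deviations of same-numbered libraries correlated at -0.11 and 0.03 over 13294 genes; with them as a replicate block and no sex term, 5 chains were higher and 3 lower, and 413 genes higher and 335 lower.

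Signs that turned and passed the threshold on the other side belong to 5 chains that were not called: Il4ra without KO 2 (-1.09, and -1.01 with no sex term, against 3.01 without KO 1), Il27ra without WT 4 (-0.15, against 0.20 without KO 2), Il12rb2 without WT 4 (-0.36) or KO 1 (-0.35, and -0.30 with no sex term, against 0.94 without KO 2), and Il1rap and Ifnar1 without KO 2 (-0.44 and -0.37, and -0.40 and -0.26 with no sex term, against 0.34 and 0.78 without KO 1). Il2rg, Il11ra1, Il20ra, Il20rb, Il17rb, Epor and Ifnar2, also not called, turned sign in at least 1 alternative without passing there. Apart from what the fits leave out, the cause was not tested. With 2 KO mice and 3 residual degrees of freedom, and 13673860 counts in KO 2, small changes of low chains are beyond the reach of these data.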
